A study of Mus musculus with 46 samples.

Results

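The values described here are those of 10 skeletal muscle genes, Acta1, Tnnt3, Tnni2, Tnnc2, Myh4, Myh1, Mylpf, Myom1, Atp2a1 and Ckm, out of the 48795 genes of an RNA-seq table of mouse tumors. They were chosen by their FPKM values in these same tumors, whose muscle content was in question, so those values are given as a description and no test is applied to them. RNA was measured in 46 samples of MC-38, a mouse colon carcinoma line. They were 3 cultures of the cells and 43 tumors grown from cells injected under the skin of the right flank in young adult female C57BL/6NTac mice.

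All groups carried the same tumor line, and every label gives the genotype WT except that of the PD-1cKO group. The 3 baseline tumors were untreated, and their labels give no time point. In the antibody experiment, WT mice received isotype control antibody or muDX400, an antibody against mouse PD-1 given at 5 mg/kg, and each antibody had 5 tumors at day 4 after 1 dose and 5 at day 8 after 2 doses. In the second experiment 10 PD-1cKO mice and 10 WT littermates all received tamoxifen at 40 mg/kg on 5 consecutive days, and the labels place these tumors at day 28. The PD-1cKO mice carry a Pdcd1 gene with loxP-flanked exons and a tamoxifen-activated Cre expressed from the Rosa26 locus, which is active in most cell types and not in T cells alone. The methods describe the littermates as carrying the floxed gene without Cre and give an earlier day for these tumors than the labels do. No source used here states how much tissue around a tumor was removed with it.

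Skeletal muscle contracts when thin filaments of actin slide along thick filaments of myosin inside the sarcomere. Calcium released from the sarcoplasmic reticulum binds troponin on the thin filament and lets myosin heads attach, and a calcium pump then returns the ion to the store. Fast fibres use their own versions of these proteins, and a layer of striated muscle, the panniculus carnosus, lies beneath the skin of the mouse trunk.

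The members were first looked up in the genome (GRCm38, GENCODE M21). Acta1, skeletal alpha-actin, is at chr8:123891769-123894751 on the minus strand. The fast troponins are Tnnt3 at chr7:142498836-142516009, Tnni2 at chr7:142441808-142444410 and Tnnc2 at chr2:164777161-164779967. The fast myosin heavy chains Myh1 and Myh4 are neighbours at chr11:67200052-67224575 and chr11:67238029-67260446, and Mylpf, the fast regulatory light chain, is at chr7:127208890-127214298. Myom1, which crosslinks thick filaments at the M-band, is at chr17:71002633-71126856, the calcium pump Atp2a1 at chr7:126445858-126463108 and muscle creatine kinase Ckm at chr7:19404776-19422841. The whole genes, exons and introns together, are meant, since the deposited values are per gene.

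Promoter windows from RefSeq (GRCm38.p6, 250 bases before to 50 after the start) were found for 8 of the 10 genes. Over all 43 tumors Acta1, Ckm and Myh4 followed the other members closely and Myh1 less closely. The median Pearson correlation with the other members was 0.949 for Acta1, 0.946 for Ckm, 0.949 for Myh4 and 0.792 for Myh1. Within WT tumors it was 0.985 for Myh4 and 0.956 for Myh1. Within tumors labelled PD-1cKO the order was reversed, with 0.904 for Myh4 and 0.92 for Myh1. The windows shown are those of the pair with the highest levels, Acta1 and Ckm, and of the neighbouring myosin genes Myh4 and Myh1. They were picked on the values over all tumors. Each is written 5′ to 3′ on the strand of the gene, and capitals mark CAGCTG, an E-box bound by myogenic factors, the CArG box of serum response factor and the A/T-rich site of MEF2. The windows lie at chr8:123894726-123895025 (minus strand), chr7:19410844-19411143, chr11:67237562-67237861 and chr11:67199852-67200151 (plus strand).
Acta1: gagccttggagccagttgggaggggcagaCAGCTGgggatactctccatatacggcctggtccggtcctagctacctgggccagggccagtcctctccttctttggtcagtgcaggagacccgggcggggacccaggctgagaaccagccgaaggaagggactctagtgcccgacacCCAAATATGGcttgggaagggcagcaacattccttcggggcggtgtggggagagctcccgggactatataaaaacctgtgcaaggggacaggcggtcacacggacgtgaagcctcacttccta
Ckm: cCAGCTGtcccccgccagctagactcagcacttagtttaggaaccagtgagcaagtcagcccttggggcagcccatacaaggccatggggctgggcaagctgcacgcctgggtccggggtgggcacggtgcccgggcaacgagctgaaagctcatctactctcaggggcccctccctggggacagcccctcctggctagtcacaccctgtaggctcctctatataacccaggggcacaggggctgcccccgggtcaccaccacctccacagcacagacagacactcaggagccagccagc
Myh4: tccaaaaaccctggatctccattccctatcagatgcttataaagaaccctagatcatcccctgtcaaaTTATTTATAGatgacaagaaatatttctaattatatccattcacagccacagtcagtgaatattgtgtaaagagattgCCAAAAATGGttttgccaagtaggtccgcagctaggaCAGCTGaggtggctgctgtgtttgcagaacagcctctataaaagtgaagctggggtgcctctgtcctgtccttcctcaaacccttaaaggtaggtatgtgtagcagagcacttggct
Myh1: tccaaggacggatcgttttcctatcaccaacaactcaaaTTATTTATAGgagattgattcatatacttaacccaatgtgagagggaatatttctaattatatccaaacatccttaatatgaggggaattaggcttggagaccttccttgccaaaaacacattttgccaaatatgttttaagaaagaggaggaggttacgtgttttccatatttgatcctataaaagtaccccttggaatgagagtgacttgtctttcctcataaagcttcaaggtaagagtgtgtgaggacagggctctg

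CAGCTG, which reads the same on both strands, was in 5 of the 8 windows (Acta1, Atp2a1, Ckm, Myh4 and Mylpf) and in 16.3% of all 32851 windows of that length. A CArG box on either strand was in 3 (Acta1, Myh4 and Myom1), against 1.63% of all windows, and a MEF2 site was in 2 (Myh1 and Myh4), against 1.86%. None of these matches overlapped another. The Myh1 window held a MEF2 match alone, and the Myh4 window held all 3 motifs. A match describes the letters of a window and does not show that a factor was bound in these tumors. Whether the motifs bear on how closely Myh4 and Myh1 followed the other members was not tested.

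Some members share sequence or position with other genes, which limits how reads of 50 bases can be assigned. Of the 50-base stretches of its transcripts, Myh1 shared 30.5% with another gene (most with Myh2) and Myh4 18.9% (most with Myh1), so reads can be split among the myosins. Tnnc2 shared 47.9% with the overlapping Ube2c, a cell cycle gene, Atp2a1 17.9% with Rabep2 and Ckm 10.8% with A930016O22Rik. Acta1 shared 2.02% and Myom1 1.51%, whereas Mylpf, Tnnt3 and Tnni2 shared 0%. Stretches were compared on both strands, and whether the authors counted by strand is not given in the sources used here.

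Facts of the libraries were checked before the members were read. FPKM, a fragment count scaled to transcript length and library size, keeps no depth, so the number of reads behind a value is unknown, and precision comes from the spread between samples alone. Short noncoding RNAs held 30.2% to 66.5% of the summed FPKM in the tamoxifen experiment and at most 0.0817% elsewhere. Isotype control replicate 1 after 1 dose stood apart, with 54.6% of its FPKM in mitochondrial genes against at most 4.31% in the other 4 tumors of its group. Pdcd1, the targeted gene, was at 5.05 to 19.9 FPKM in the tumors labelled PD-1cKO and at 1.71 to 7.02 FPKM in WT tumors. A value for the whole gene does not separate the floxed exons from the rest, so it does not check the label. Where the labels do not say that samples came from separate mice, the spread may be partly technical.

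The 10 genes were near the floor in cultured MC-38 cells and ranged widely in tumors. Their sum was 2.09, 2.18 and 2.05 FPKM in the 3 cultures. In the 43 tumors the sum ran from 1.84 to 969 FPKM, a 526.4-fold range. Tumors fell mostly at the ends: 20 had at least 8 of the 10 genes at 2 FPKM or more, 20 had at most 1 and 3 lay between. The level of 2 FPKM was chosen after the values were seen, and no test rests on it.

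High and low tumors occurred side by side within most groups. The sums in the baseline tumors were 150, 69.9 and 4.62 FPKM. After 1 dose they were 44.1, 3.54, 230, 36.7 and 2.50 FPKM in isotype control tumors and 2.80, 570, 197, 10.0 and 2.93 FPKM in PD-1 Ab-treated tumors. In these 3 groups the highest tumor was at least 32.5 times the lowest, and the groups overlapped throughout.

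Isotype control tumors after 2 doses were the exception, with sums of 2.88, 4.03, 4.19, 3.90 and 3.73 FPKM, a 1.45-fold range. PD-1 Ab-treated tumors after 2 doses gave 4.58, 7.24, 15.0, 6.02 and 94.8 FPKM, each higher than any control of that time, with replicate 5 far above the rest. WT tumors under tamoxifen had a lowest, median and highest sum of 3.55, 146 and 408 FPKM, and tumors labelled PD-1cKO of 1.84, 27.1 and 969 FPKM. At least 8 of the genes reached 2 FPKM in 7 of 10 WT tumors and in 5 of 10 labelled PD-1cKO.

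**Figure D1:**
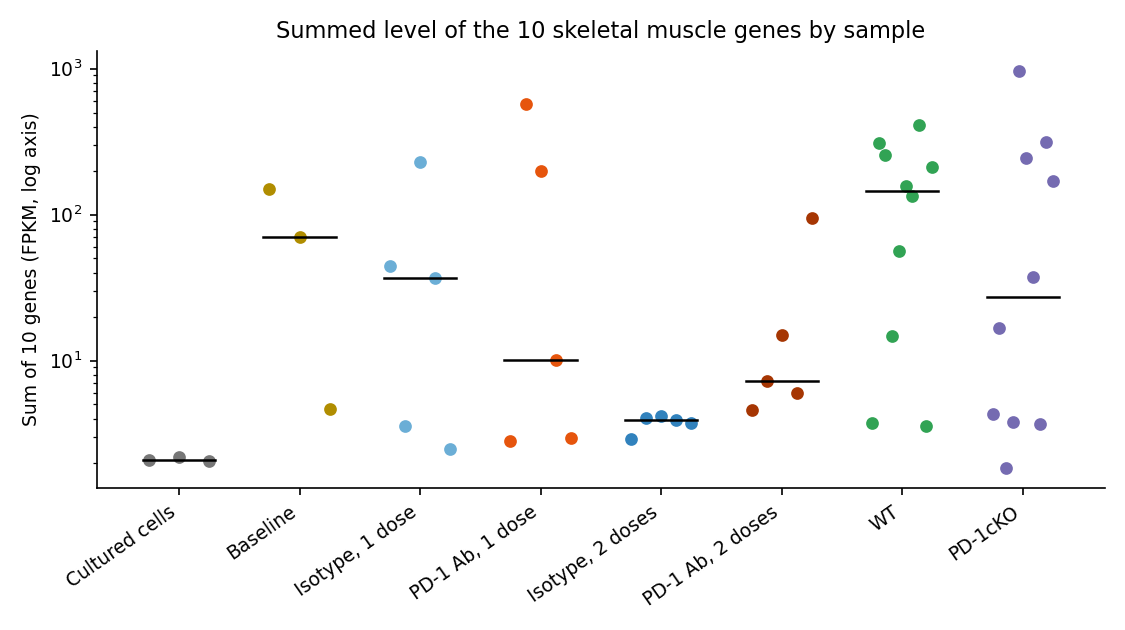
Sum of the 10 skeletal muscle genes in each of the 46 samples (FPKM, log axis), with a point per sample and a line at the median of each group. The 5 isotype control tumors after 2 doses lie between 2.88 and 4.19 FPKM, while every other tumor group spans at least 20.7-fold.

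As a share of the FPKM of all genes, the median of the 10 genes was 0.0183% in WT tumors, 0.00279% in tumors labelled PD-1cKO and 0.000735% in isotype control tumors after 2 doses. Over protein-coding genes without mitochondrial ones, which leaves out the short noncoding RNAs, these medians were 0.0383%, 0.00802% and 0.000805%, and the highest single tumor, PD-1cKO replicate 5, reached 0.311%. The order of these 3 groups was the same on both scales, but the highest tumor was not. As a share of all genes PD-1 Ab replicate 2 after 1 dose was highest at 0.129%, and PD-1cKO replicate 5 was at 0.0796%. In bulk tissue, fewer cells of a type and less RNA per cell cannot be told apart.

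Among thin filament genes, Acta1 held a median of 24.6% of the sum in the 20 tumors with at least 8 genes at 2 FPKM or more. It was at 0.0250, 0.0325 and 0.0609 FPKM in cultures and at 36.5, 17.3 and 0.344 FPKM in baseline tumors. After 1 dose it was at 10.8, 0.138, 78.5, 9.30 and 0.362 FPKM in isotype control tumors and at 0.185, 168, 63.1, 1.43 and 0.138 FPKM in PD-1 Ab-treated tumors. Each of these tumor groups thus held high and low tumors, and the highest level was in a PD-1 Ab-treated tumor, replicate 2.

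After 2 doses Acta1 was listed at 0 in isotype control replicates 3 and 4 and was at 0.116, 0.0592 and 0.130 FPKM in the other 3 tumors. In PD-1 Ab-treated tumors it was at 0.558, 1.05, 3.63, 1.22 and 20.3 FPKM, so the groups did not overlap. In WT tumors the lowest, median and highest Acta1 values were 0.0725, 35.03 and 116 FPKM, and in tumors labelled PD-1cKO 0.102, 6.36 and 266 FPKM, with the 2 groups overlapping over nearly their whole range.

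The 3 fast troponin subunits followed the same tumors. Tnnt3, which anchors the complex to tropomyosin, was listed at 0 in the 3 cultures and reached 72.7 FPKM in PD-1 Ab replicate 2 after 1 dose. Tnni2, the inhibitory subunit, reached 55.4 FPKM in PD-1cKO replicate 5. It kept a floor that the others lacked, at 0.803 to 1.66 FPKM in isotype control tumors after 2 doses against at most 0.112 FPKM in cultures. Tnnc2, the calcium-binding subunit, was listed at 0 in 9 of the 43 tumors and reached 57.7 FPKM. Its partner in sequence, Ube2c, was at 84.3 to 165 FPKM in isotype control tumors after 2 doses, where Tnnc2 was at 0 to 0.570 FPKM.

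Of the thick filament genes, Myh4 encodes the heavy chain of the fastest fibres and Myh1 that of a somewhat slower fast type. Myh4 was listed at 0 in 3 tumors and reached 81.3 FPKM. Myh1 was never at 0 in a tumor and reached 39.4 FPKM. Among isotype control tumors after 2 doses Myh4 was at 0.0424, 0.0145, 0, 0 and 0.0275 FPKM, whereas Myh1 was at 1.03, 0.912, 0.701, 0.880 and 1.02 FPKM.

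This floor of Myh1 stood beside reads of Myhas, an antisense transcript that overlaps Myh1. Myhas was at 1.26 to 2.25 FPKM in isotype control tumors after 2 doses, at 0.196 to 0.690 FPKM in PD-1 Ab-treated tumors of that time and at 0.206 to 0.336 FPKM in cultures. Myh1 was in turn at 0.485 to 0.712 FPKM in those PD-1 Ab-treated tumors and at 0.325 to 0.343 FPKM in cultures. Without the strand, reads of an antisense pair cannot be told apart, and the part of Myhas in the Myh1 values was not tested. Myh1 also reached 28.8 FPKM in PD-1cKO replicate 10, where Myhas was at 0.0601 FPKM.

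Mylpf was the member with the highest level in culture, at 1.31, 1.57 and 1.26 FPKM, and 21 of the 43 tumors were above every culture. It reached 69.3 FPKM in PD-1 Ab replicate 2 after 1 dose. Myom1 had the lowest levels, at most 4.98 FPKM, with 7 of the 43 tumors at 2 FPKM or more. Atp2a1 reached 141 FPKM and was listed at 0 in 6 tumors.

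Ckm, which regenerates ATP from phosphocreatine, was the second most abundant member by the mean over tumors. It was at 23.0 FPKM in baseline replicate 1, at 8.44 FPKM in replicate 2 and listed at 0 in replicate 3. After 1 dose it was at 2.81, 0.232, 30.1, 5.64 and 0.170 FPKM in isotype control tumors and at 0.133, 63.4, 21.9, 1.03 and 0.161 FPKM in PD-1 Ab-treated tumors. After 2 doses it was at 0.271, 0.128, 0.379, 0.162 and 0.195 FPKM against 0.145, 0.137, 1.34, 0.226 and 14.98 FPKM. Unlike Acta1, Ckm overlapped between these last 2 groups, with replicates 3 and 5 under PD-1 Ab higher than any control (2 of 5). Its lowest, median and highest values were 0.274, 20.4 and 52.3 FPKM in WT tumors and 0.128, 4.91 and 202 FPKM in those labelled PD-1cKO.

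**Figure D2:**
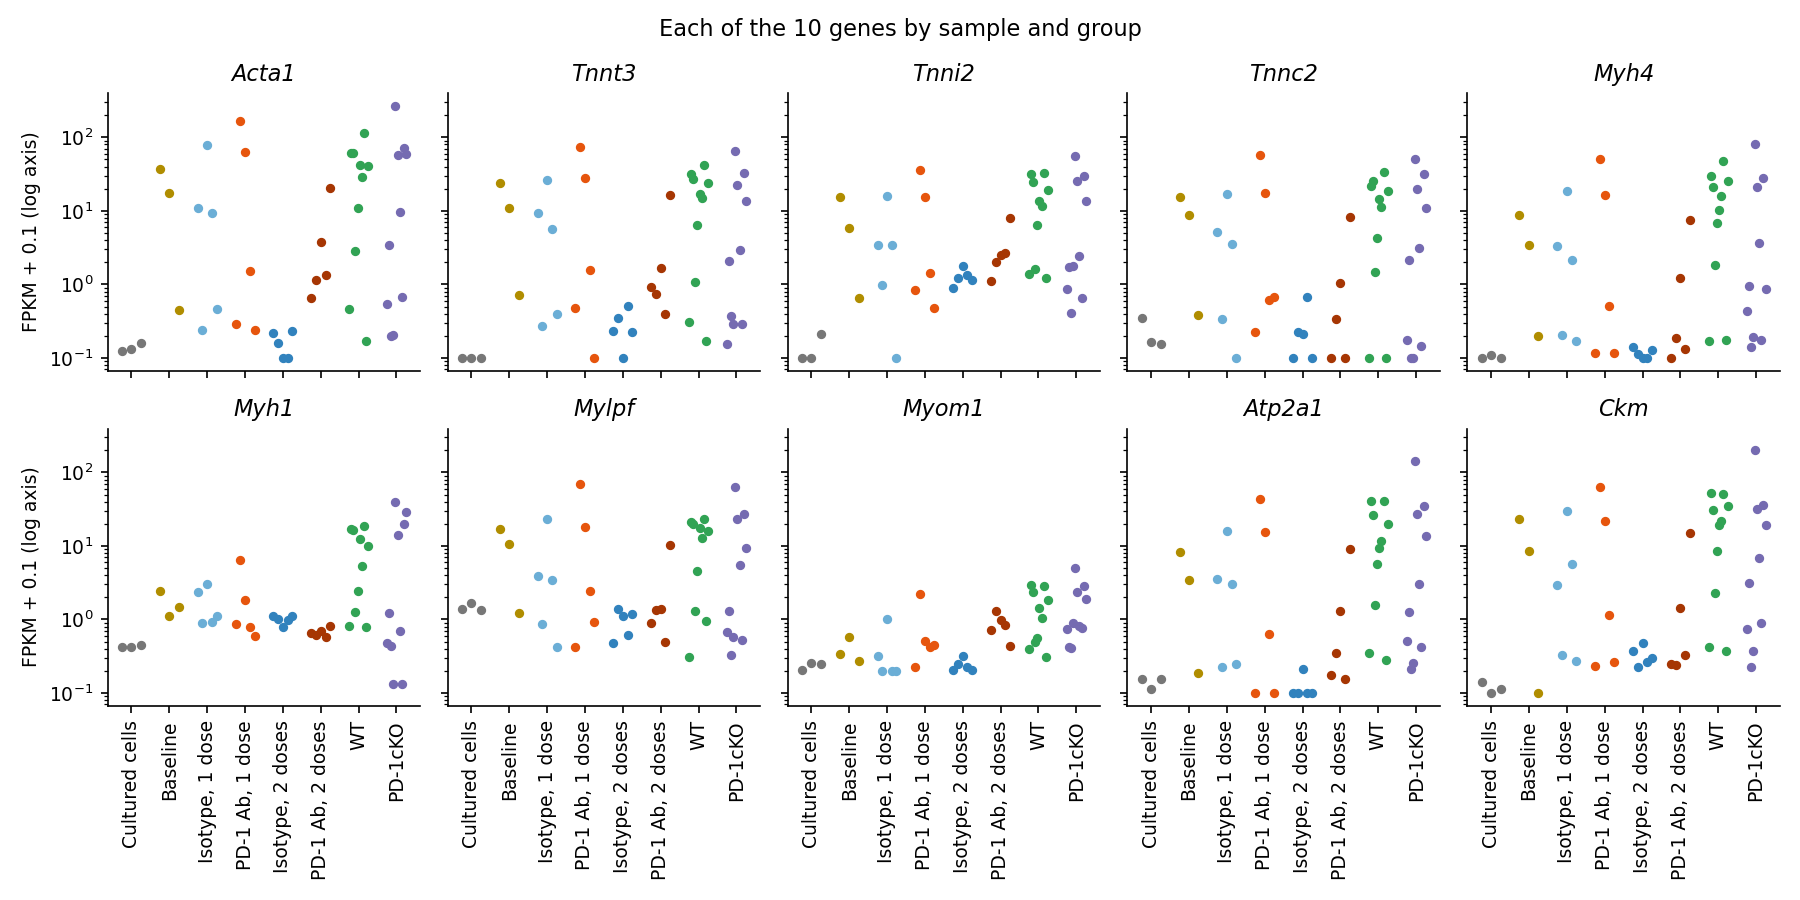
FPKM + 0.1 (log axis) of each of the 10 genes in every sample, with a panel per gene and a column of points per group. Most panels repeat 1 pattern, high and low tumors within a group. Myh1, Mylpf, Tnni2, Ckm and Myom1 do not fall to 0 in isotype control tumors after 2 doses, and Myom1 stays at or below 4.98 FPKM.

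The members rose and fell together from tumor to tumor. PD-1cKO replicate 5 had the highest value of its group for 10 of the 10 genes, as did isotype control replicate 3 and PD-1 Ab replicate 2 after 1 dose. PD-1 Ab replicate 5 after 2 doses was highest for 9 of 10, the exception being Myom1, and WT replicate 8 for 8 of 10. Over the 43 tumors the Pearson correlation of log2(FPKM + 0.1) between pairs of members had a median of 0.927 over 45 pairs, with the highest value, 0.984, between Ckm and Atp2a1. The lowest was 0.659, between Tnnc2 and Myom1. Within the 10 WT tumors the median was 0.965 and within the 10 labelled PD-1cKO 0.941. These values describe points that share a library, most of them lie at the ends of the range, and they are given with no test.

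Outside the members, 14854 genes averaged 0.5 FPKM or more over the tumors, and 14 of them had a correlation of at least 0.9 with the mean log2 value of the 10. Of these 14, 12 belonged to a list of 61 other muscle genes. The 10 most alike over the 43 tumors were Mybpc2 (r = 0.984), Pvalb (0.983), Eef1a2 (0.971), Actn3 (0.963), Myl1 (0.962), Casq1 (0.958), Myom2 (0.955), Tcap (0.949), Apobec2 (0.948) and Ryr1 (0.934). Eef1a2 and Apobec2 were not in the list. The highest value of 8 of the 10 was in PD-1cKO replicate 5, and that of Pvalb and Myl1 was in PD-1 Ab replicate 2 after 1 dose.

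Likeness to the members varied within the list, and 22 of its 32 measured genes had an r of at least 0.7. Tpm2, a tropomyosin that smooth muscle and other cells also use, had the highest mean of the sarcomere genes at 67.9 FPKM and an r of 0.263, and was at 40.7 to 43.2 FPKM in culture. Tnni1, the slow form of troponin I, had a mean of 4.78 FPKM and an r of 0.072. The next by mean in their roles were Myl1 (7.64 FPKM) among sarcomere genes, Pvalb (5.58 FPKM) and Srl (2.81 FPKM) for calcium handling, Eno3 (11.7 FPKM) and Cox6a2 (4.51 FPKM) for energy supply and Tnnt1 (1.02 FPKM) for slow fibres. The precursor and regulator genes stayed low: Myh3, embryonic myosin, had a mean of 0.230 FPKM and Myog, myogenin, of 0.153 FPKM, with highest values of 1.11 and 1.04 FPKM. No gene of that role passed the filter on low values in any comparison.

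Ratios between members were read in the 20 tumors with at least 8 of the genes at 2 FPKM or more, since a ratio of values near 0 cannot be interpreted. Tnnt3 over Tnni2 was 1.58 to 2.81 in the 8 such tumors of the baseline and antibody groups and 0.879 to 1.31 in the 12 of the tamoxifen experiment, without overlap. Myh4 over Myh1 had medians of 4.96 and 1.90 and did overlap. Acta1 over Ckm ran from 1.36 to 3.82 and from 1.15 to 3.10. Myh2, the third fast heavy chain, made up a median of 0.134% of the summed Myh1, Myh2, Myh4 and Myh7 FPKM in the first set and 6.40% in the second. The 2 experiments differed in time, tamoxifen and libraries together, so these cannot be told apart, and no test was applied to tumors picked for their level.

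PD-1cKO replicate 10 differed in kind from the others of this set. Its Acta1 was 59.7 FPKM, Ckm 19.3 FPKM and Myh1 28.8 FPKM, but Myh4 was 0.753 FPKM, so Myh4 over Myh1 was 0.0261. In the other 11 such tumors of the experiment the ratio was at least 0.817. Myh4 held 2.27% of the 4 heavy chains in that tumor, Myh1 86.7% and Myh2 11.0%, whereas Myh4 held at least 38.9% in the other 19. With reads shared among the myosins, these shares are uncertain, and the tumor is 1 sample.

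**Figure D3:**
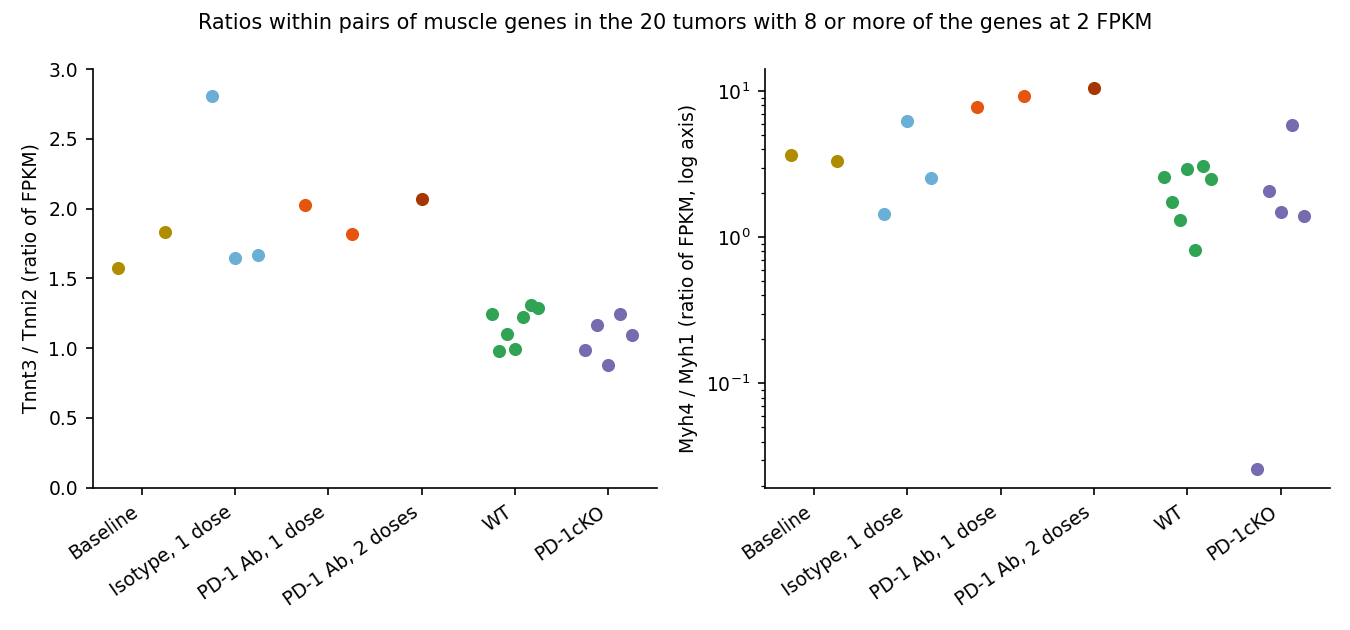
FPKM of Tnnt3 over Tnni2 (left, linear axis) and of Myh4 over Myh1 (right, log axis), with 1 point for each of the 20 tumors that had at least 8 of the 10 genes at 2 FPKM or more. On the left the 8 tumors of the baseline and antibody groups lie at 1.58 or above and the 12 of the tamoxifen experiment at 1.31 or below; on the right PD-1cKO replicate 10 lies alone at 0.0261.

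Differences between groups were fitted with limma on log2(FPKM + 0.1) for all genes averaging 0.5 FPKM or more in one of the groups, and a gene was called at a Benjamini-Hochberg adjusted p under 0.01 and a 2-fold change. This scale understates the change of low genes. For the members the differences are given with their SE as a description, with neither p nor call, and calls are read in the 61 other muscle genes.

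PD-1 Ab-treated tumors did not separate from isotype controls after 1 dose. The log2 difference was 0.06 (SE 2.06) for Acta1, 0.22 (SE 1.73) for Ckm and 0.85 (SE 0.67) for Myom1, and the median over the 10 members was 0.14 against 0.26 over all 14556 genes tested. Myom1 passed the filter only through the PD-1 Ab-treated tumors. Leaving out single tumors gave Acta1 differences from -1.28, without PD-1 Ab replicate 2, to 1.15, so its direction was not stable. Members overlapped between the groups in 10 of 10 cases, and 3.59% of all genes lay wholly higher under PD-1 Ab. Of the other muscle genes 32 passed the filter and limma called 0, as it did 0% of all genes, while 1 of them and 895 of all genes reached an unadjusted p under 0.05. Isotype control replicate 1, with its high mitochondrial share, made no difference to this count, which was 0 without it. Isotype control replicates 1 to 3 have identifiers in a run with no PD-1 Ab-treated tumor, so run and treatment are partly confounded. With the run as a covariate the count was also 0.

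After 2 doses most members had higher means in PD-1 Ab-treated tumors, and the separation was largest for Acta1 and Myom1. The log2 difference was 3.98 (SE 0.78) for Acta1 and 1.77 (SE 0.35) for Myom1, 2.59 (SE 0.86) for Tnnt3, 2.47 (SE 0.98) for Atp2a1, 2.02 (SE 1.04) for Myh4 and 1.41 (SE 0.99) for Ckm. It was 1.30 (SE 1.11) for Tnnc2, 1.06 (SE 0.43) for Tnni2, 0.79 (SE 0.67) for Mylpf and -0.57 (SE 0.22) for Myh1. The median of the 10 was 1.59, against -0.04 over all 15062 genes. Acta1, Ckm, Myh4, Tnnt3, Tnnc2, Atp2a1 and Myom1 passed the filter only through the PD-1 Ab-treated tumors, so nothing is read from this median.

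Acta1 and Myom1 were the 2 of 10 members whose groups did not overlap. Of all genes tested 9.23% lay wholly higher under PD-1 Ab, and nothing is read from the count, since the members were chosen by these values.

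The pair differed in which tumors were high. Myom1 was at 0.625, 1.19, 0.895, 0.732 and 0.341 FPKM in the PD-1 Ab-treated tumors and at 0.104, 0.145, 0.221, 0.125 and 0.106 FPKM in isotype controls. Its lowest PD-1 Ab-treated value was thus in replicate 5, the tumor where the other 9 members were highest. Without replicate 5 the log2 difference was 1.99 for Myom1, 3.20 for Acta1, 1.72 for Tnnt3 and 0.11 for Mylpf.

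**Figure D4:**
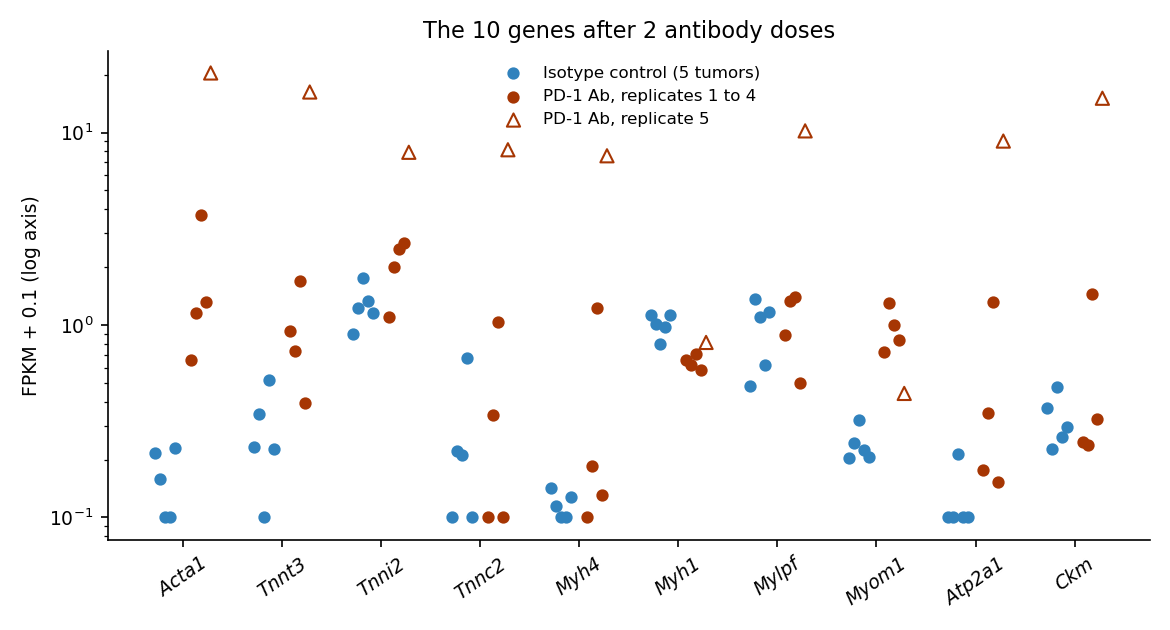
FPKM + 0.1 (log axis) of the 10 genes in the 5 isotype control tumors (blue) and the 5 PD-1 Ab-treated tumors (brown) after 2 doses, with PD-1 Ab replicate 5 as an open triangle. Among the PD-1 Ab-treated tumors the triangle is highest for 9 genes and lowest for Myom1, for Myh1 it lies within the range of the controls, and Acta1 and Myom1 are the genes whose 2 groups do not overlap.

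Among the other muscle genes 16 passed the filter after 2 doses and limma called 2, both higher, where 5.03% of all genes were called higher. The 2 called genes passed the filter only through the PD-1 Ab-treated tumors, so nothing is read from their direction. Jph2, a junctophilin that ties the sarcoplasmic reticulum to the surface membrane, was at 1.63, 2.62, 2.36, 1.504 and 0.692 FPKM under PD-1 Ab and at 0.141, 0.244, 0.244, 0.168 and 0.190 FPKM in controls (log2 difference 2.54, SE 0.34, limma adjusted p = 0.00106). All 5 were above every control, and the lowest was again in replicate 5. Myl1, a fast essential light chain, was at 0.607, 1.05, 1.64, 0.464 and 7.84 FPKM against 0 to 0.222 FPKM (log2 difference 3.19, SE 0.70, limma adjusted p = 0.00872). Its highest value was in replicate 5, and its call was lost when any of 8 of the 10 tumors was left out.

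Markers of other tissues moved in the same comparison. Of the 8 T cell genes, 8 of 8 were called higher, with summed levels of 12.3 to 29.5 FPKM in controls and 65.4 to 225 FPKM under PD-1 Ab. Of the 6 smooth muscle genes, 3 were called higher (Acta2, Cnn1 and Tagln), with sums of 111 to 141 FPKM and 142 to 293 FPKM. Cnn1 passed the filter only through the PD-1 Ab-treated tumors. Of the 8 adipose genes 1 was called, with sums of 18.5 to 161 FPKM and 54.3 to 1114 FPKM. All 6 smooth muscle and all 8 adipose genes had an unadjusted p under 0.05 by limma, as did 5977 of all 15062 genes. The smooth muscle genes did not all move the same way. Smtn was lower under PD-1 Ab, at 48.8 to 74.6 FPKM against 68.2 to 78.6 FPKM in controls, while the rest had higher means. The part of these tissues in the Acta1, Myom1 and Jph2 values was not tested.

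Tumors labelled PD-1cKO and WT tumors overlapped for each of the 10 members, and 0.643% of all genes lay wholly higher in the former. The log2 difference was -1.07 (SE 1.44) for Acta1, -0.94 (SE 1.22) for Ckm, -1.73 (SE 1.28) for Myh4, -1.26 (SE 1.07) for Myh1 and 0.14 (SE 0.51) for Myom1. The other 5 lay between -1.26 and -0.84, and the median of the 10 was -1.06, against -0.20 over all 15075 genes. Of the 9 members with a negative log2 difference 5 had a higher mean FPKM in tumors labelled PD-1cKO: Acta1, Ckm, Myh1, Mylpf and Atp2a1. For Acta1 the means were 46.9 ± 82.2 FPKM (SD, n = 10) in tumors labelled PD-1cKO and 36.4 ± 36.5 FPKM (SD, n = 10) in WT tumors, since PD-1cKO replicate 5 alone was at 266 FPKM. Of the 10 tumors labelled PD-1cKO 7 have identifiers in a run with no WT tumor, and with the run as a covariate the differences were -1.97 (SE 2.49) for Acta1 and -3.80 (SE 2.27) for Myh4.

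**Figure D5:**
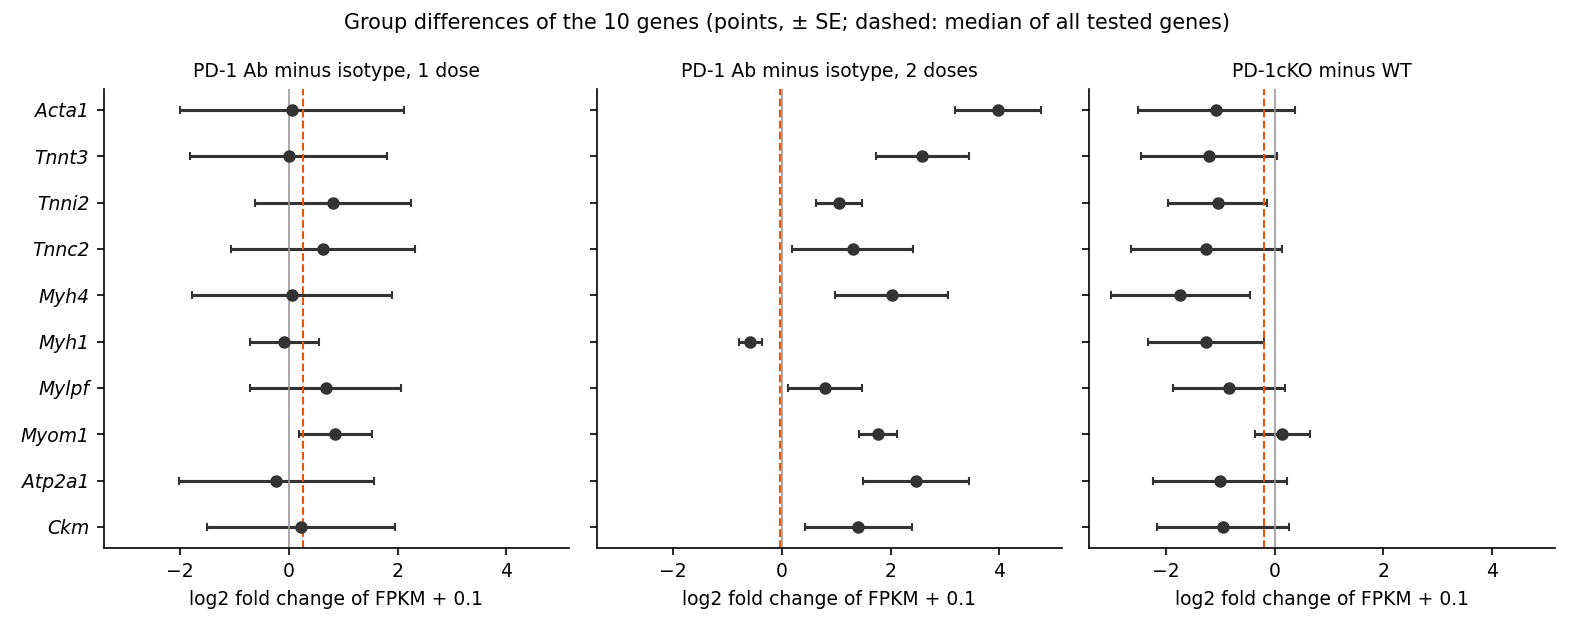
Log2 difference of FPKM + 0.1 (points) with its SE (bars) for the 10 genes after 1 dose, after 2 doses and under tamoxifen, with the median of all tested genes dashed. After 2 doses 9 of the 10 points are above 0 and Acta1 is highest at 3.98; under tamoxifen 9 are below 0, 6 of them within 1 SE of it.

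Of the other muscle genes 38 passed the filter under tamoxifen and limma called 1, where 8.07% of all genes were called in either direction. This was Jph2, with a mean of 2.16 FPKM in tumors labelled PD-1cKO and 0.751 FPKM in WT tumors (log2 difference 1.34, SE 0.34, limma adjusted p = 0.00482), 7 of 10 tumors lying above every WT tumor. With the run of identifiers as a covariate its log2 difference was 1.32 (SE 0.62) and its limma adjusted p 0.110, so the difference was about as large and its error larger. None of the 17 sarcomere genes tested was called, and 0 had an unadjusted p under 0.05 by limma. T cell genes were again called higher for 8 of 8, with sums of 13.4 to 55.7 FPKM in WT tumors and 36.5 to 142 FPKM in those labelled PD-1cKO. Of the smooth muscle genes limma called 1 of 6, Cnn1, which passed the filter only through the tumors labelled PD-1cKO. An unadjusted p under 0.05 by limma was reached by 6 of 6, against 7968 of all 15075 genes. Again Smtn was lower, at 10.3 to 43.7 FPKM in tumors labelled PD-1cKO against 30.5 to 58.1 FPKM in WT tumors. The rest had higher means in tumors labelled PD-1cKO. The smooth muscle sums were 79.8 to 117 FPKM in WT tumors and 91.6 to 196 FPKM in those labelled PD-1cKO. Of the adipose genes limma called 0 of 8, with 4 at an unadjusted p under 0.05, with sums of 10.4 to 193 FPKM and 13.3 to 1799 FPKM. The part of these tissues in the Jph2 values was not tested. Over the 43 tumors Jph2 had an r of 0.397 with the mean log2 value of the members. It was at 3.05 and 2.87 FPKM in PD-1cKO replicates 4 and 8, where the members summed to 3.80 and 3.70 FPKM. Its highest value, 5.59 FPKM, was in PD-1cKO replicate 5, where they summed to 969 FPKM.

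Whether the 2 models differed was tested as PD-1 Ab against isotype control after 2 doses minus PD-1cKO against WT. Limma called 0 of 38 other muscle genes, 2 of them (Myl1 and Jph2) at an unadjusted p under 0.05, and 0.0914% of all 16404 genes.

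Growth in the mouse without PD-1 Ab was read as isotype control tumors after 2 doses against cultures. Of the members 3 passed the filter, Myh1 and Tnni2 only through their level in tumors. The log2 difference was 1.21 (SE 0.20) for Myh1, 3.27 (SE 0.34) for Tnni2 and -0.74 (SE 0.36) for Mylpf. Ckm, which did not pass the filter, was also above every culture in 5 of 5 tumors, at 0.128 to 0.379 FPKM against at most 0.0395 FPKM. For Ckm, Myh1 and Tnni2 the groups did not overlap, as for 26.3% of the genes tested.

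Of the other muscle genes 9 passed this filter and limma called 3, in both directions, where 21.3% of all genes were called in either direction. Tnni1 was at a mean of 6.37 FPKM in tumors and 0.205 FPKM in cultures (log2 difference 4.46, SE 0.26, limma adjusted p = 7.5e-07), and Cox6a2, a subunit of cytochrome oxidase in striated muscle, at 4.65 and 0.714 FPKM (2.36, SE 0.44, limma adjusted p = 0.00174). Pygm, muscle glycogen phosphorylase, was lower in tumors, at 0.432 and 1.29 FPKM (-1.41, SE 0.29, limma adjusted p = 0.00328). Tnni1 passed the filter only through the tumors and Pygm only through the cultures.

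Baseline tumors had higher means than isotype control tumors after 2 doses for each of the 9 members that passed the filter. The log2 differences ran from 0.66 (SE 0.30) for Myh1 to 5.44 (SE 1.198) for Acta1, with a median of 3.90 against 0.06 over all genes. Of these 9, Acta1, Ckm, Myh4, Tnnt3, Tnnc2 and Atp2a1 passed the filter only through the baseline tumors, and Myom1 did not pass it. Nothing is therefore read from the median of the members here. For Acta1, Myh4 and Tnnt3 the 3 baseline tumors were above every isotype control tumor, as for 9.28% of the genes tested. With all 3 tumors limma called 0 of the 27 other muscle genes tested, where 0.595% of all genes were called, and 17 of the 27 had an unadjusted p under 0.05. Without baseline replicate 3, 5 of them were called, as were 56 of all genes. That tumor had the lowest sum of the members in its group, 4.62 FPKM, so leaving it out selects on the muscle level itself.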

How the data were processed

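The authors prepared libraries from total RNA with a stranded kit that removes ribosomal RNA, read paired ends of 50 bases and quantified Ensembl genes. The deposited values are FPKM, which the authors scaled to transcript length and library size, and counts were not analysed here. Of 48795 gene identifiers 99.1% were matched to a symbol in a table of mouse gene names, coordinates came from GENCODE M21 (GRCm38), and no value was missing. No depth can be read from FPKM, and the total of a sample moves with the share of short noncoding RNA. The strand setting of the counting is not given in the sources used here.

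Groups came from the sample titles. Genes averaging 0.5 FPKM or more in one of the groups compared entered a fit of log2(FPKM + 0.1) by limma 3.58.1 (R 4.3.3) with an intensity trend in eBayes. A call needed a Benjamini-Hochberg adjusted p under 0.01 plus a difference of 2-fold. The fit was tested on simulated data beforehand. P-values measure the spread between samples, which may be technical in part. Tables and figures were made with Python 3.11.15, pandas 2.3.3, numpy 2.4.6 and matplotlib 3.10.9.

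The members, the 61 other muscle genes and the marker lists were chosen with earlier results of these data known. The text names the 10 members, the 10 genes most alike, Pdcd1 and the 2 genes with the highest mean per role. It also names the 3 called genes with the lowest p per comparison. Acta2, Cnn1, Tagln, Smtn and overlapping genes were added after their values were seen. Of the tissue lists, cardiac muscle, epidermis, nerve sheath and tendon had 0, 0, 1 and 0 genes called after 2 doses, and 0, 0, 1 and 0 under tamoxifen. Alternatives were another pseudocount, filter, scaling and variance model, all tumors in 1 fit, the replicate number as a block, the run of identifiers as a covariate and leaving out tumors.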

Additional observations from a re-analysis of the deposited data

Results flagged for a closer look

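A value is given here where the gap between the highest tumor and the next, divided by the range of its group, passed Dixon's 95% critical value. The members were chosen by these same values, so this picks values to look at and is no test of them. In groups of normal values chance alone picks about 1 in 20. Of 60 combinations of gene and group 28 were picked, and they are not independent, since the genes rise together within a tumor.

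After 1 dose of isotype control, replicate 3 stood apart for Acta1 (78.5 FPKM), Ckm (30.1), Myh4 (18.6), Mylpf (23.2), Tnni2 (16.1), Atp2a1 (15.8) and Myom1 (0.923). After 2 doses of PD-1 Ab, replicate 5 stood apart for Acta1 (20.3 FPKM), Ckm (14.98), Myh4 (7.47), Mylpf (10.1), Tnnt3 (16.1), Tnni2 (7.798), Tnnc2 (8.04) and Atp2a1 (8.93). PD-1cKO replicate 5 did so for Acta1 (266 FPKM), Ckm (202), Myh4 (81.3), Mylpf (62.9), Tnnt3 (64.5), Atp2a1 (141) and Myom1 (4.98).

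After 1 dose of PD-1 Ab, replicate 2 stood apart for Myh1 (6.44 FPKM), Mylpf (69.3) and Myom1 (2.09), and among WT tumors replicate 8 for Acta1 (116 FPKM). In isotype control tumors after 2 doses the highest values were picked at a low level, Tnnc2 at 0.570 FPKM in replicate 4 and Atp2a1 at 0.115 FPKM in replicate 3.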

How the results depend on the processing

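Each result here is the number of other muscle genes called. After 2 doses it was 2, and it was 1 with 1 FPKM added, with no filter, with all tumors in 1 fit and without a trend, and 1 to 2 when single tumors were left out. It stayed at 2 with a filter at 1 FPKM and under both scalings, and was 3 at an adjusted p under 0.05 with no fold limit, a limit chosen after seeing the data. Under tamoxifen the number was 1, and it was 0 with 1 FPKM added, with no filter and with the run of identifiers as a covariate, and 2 with all tumors in 1 fit. Leaving out single tumors there, also chosen after seeing the data, gave 0 to 2, with 0 without PD-1cKO replicate 4 and 2 without PD-1cKO replicate 6 or 9. For isotype control tumors against cultures the 3 calls became 5 with no filter and 1 with all samples in 1 fit, and 1 to 3 when single samples were left out, the 1 without culture replicate 2. For baseline tumors the number was 0 to 5 when single tumors were left out, 5 without baseline replicate 3, where 56 of all genes were called. After 1 dose and for the difference between the models it was 0 under every alternative run. Where a call was lost the cause was not tested.

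Samples that share a replicate number did not deviate together, with correlations of their deviations from -0.209 to 0.159. No pairing by number was thus seen, though weak correlations over all genes do not exclude one. With the replicate number as a block the count was 1 after 2 doses and 0 under tamoxifen, and the other counts of muscle genes kept within 1.5 times. Of all genes, 799 were called after 2 doses, against 450 with no filter, 316 with the block, 375 without PD-1 Ab replicate 3 and 1534 without replicate 5, the ends of that range. Under tamoxifen 1217 were called, against 617 with 1 FPKM added, 0 with the run of identifiers, 743 without PD-1cKO replicate 4 and 1871 without replicate 9. After 1 dose 0 became 10 with all tumors in 1 fit and 7 without isotype control replicate 1. For baseline tumors the 89 became 135 with 1 FPKM added, 57 with no filter, 149 in 1 fit, 0 with the block and 13 to 166 without single tumors. For the difference between the models the 15 became 25, 28, 0 and 1 under these settings, 9 and 1 under the median-of-ratios and upper-quartile scalings, and 2 to 55 without single tumors.

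Among the members 1 FPKM added in place of 0.1 lowered the log2 difference after 2 doses to 1.81 for Acta1 and 0.61 for Myom1. Median-of-ratios scaling moved the median of all genes from 0.26 to 0.01 after 1 dose and from -0.20 to -0.04 under tamoxifen. Depth is unknown for every value.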
